A study of Mus musculus with 6 samples.

Results

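The BMP genes described here were 10 genes of the bone morphogenetic protein pathway: the ligands *Bmp2*, *Bmp4* and *Bmp6*, the receptors *Bmpr1a* and *Bmpr2*, the signal transducers *Smad1* and *Smad5*, the inhibitory Smad *Smad6*, and the secreted antagonists *Grem1* and *Nog*. They were chosen by gene symbol from the 54525 genes counted, each symbol matched a single gene, and all 10 passed the filter on low counts, which left 16290 genes for testing. RNA-seq was performed on wild-type, untreated C2C12 cells, an established mouse myoblast line, as myoblasts (day 0, D0, n = 3 libraries) and as myotubes after 5 days of differentiation (D5, n = 3 libraries) in medium with reduced serum. Both groups come from the same line, and the change of medium and the time in culture go together with differentiation. D0 and D5 were compared to see which parts of the pathway differ in RNA level between myoblasts and myotubes.

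BMPs are secreted dimers of the TGF-beta superfamily. They bring together type I and type II receptor kinases at the cell surface, and the type I receptor phosphorylates Smad1, Smad5 and Smad9, which enter the nucleus with Smad4 and turn on target genes such as the Id genes, whose products block muscle transcription factors. Noggin and gremlin hold BMPs away from their receptors, and Smad6 is made in response to BMP and damps the signal inside the cell. In C2C12 cells, added BMP2 is known to stop muscle differentiation and to turn on osteoblast genes.

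The D0 libraries held from 36555048 to 40895840 counts on genes and the D5 libraries from 25449759 to 25811300. Levels of a gene are given as CPM, counts per 1000000 counts after TMM scaling, and different genes are compared only as TPM, which also divides by exonic length. The marker genes went with the labels: 6 of 6 myoblast and proliferation markers fell (summed CPM from 1738 to 1742 at D0 and from 196 to 201 at D5) and 6 of 6 myotube markers rose (summed CPM from 56.6 to 70.3 at D0 and from 11923 to 12753 at D5). The adipocyte markers *Adipoq* and *Plin1* and the endothelial and blood cell markers *Cdh5* and *Ptprc* had at most 3 counts in any library, and *Fabp4* and *Pecam1* at most 11 and 7. The other genes of these lists were detected and fell, *Pparg* from 18.9 to 7.84 CPM (log2 fold change -1.27) and *Kdr* from 2.50 to 0.214 CPM (-3.52). These are bulk libraries, in which fewer cells of a type and less RNA per cell cannot be told apart, and a D5 culture can hold unfused cells beside myotubes.

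All 10 BMP genes passed edgeR's quasi-likelihood test at an adjusted p of 0.05, 7 of them higher and 3 lower at D5. Among all genes tested 82.9% were called, 42.2% higher and 40.8% lower, so a call on its own does not set these genes apart. In 7 genes every D5 library lay above every D0 library and in 3 every D5 library lay below, without overlap in any of the 10, while the groups did not overlap in 83.3% of all genes tested, 42.2% above and 41.1% below. The median log2 fold change of the 10 genes was 0.54, also with *Bmp2* at its lower bound, and that of all genes tested was 0.0022. As fold changes, *Bmp4*, *Bmp2*, *Grem1* and *Nog* changed far more than the receptors and the Smads, as the distance between the groups relative to each panel's axis shows in the plot of CPM by library.

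**Figure D1:**
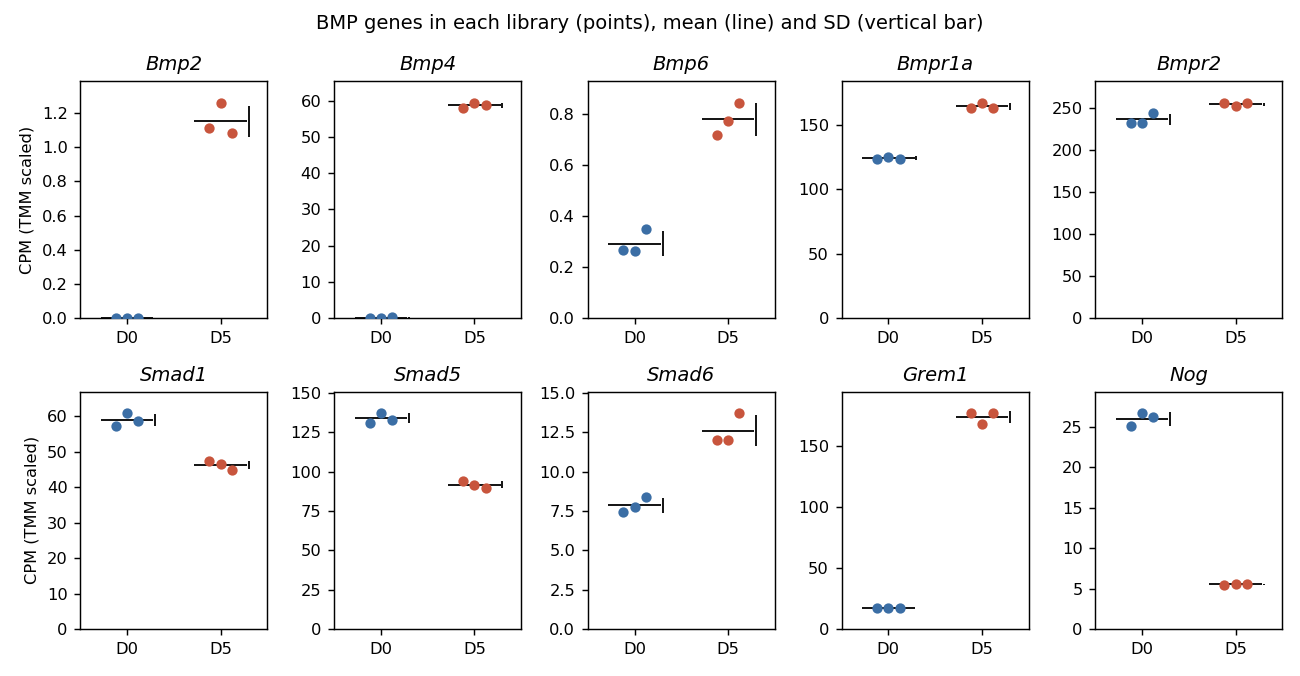
CPM (TMM scaled, linear axes from 0) of the 10 BMP genes in each of the 3 D0 and 3 D5 libraries (points), with the group mean (horizontal line) and SD (vertical bar). *Bmp4* lies between 0.0238 and 0.347 CPM at D0 and between 58.1 and 59.5 at D5, whereas *Bmpr2* lies between 233 and 245 at D0 and between 253 and 257 at D5.

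The RNA of all 3 ligands was scarce in myoblasts and rose in myotubes, and *Bmp4* became the ligand with most RNA. *Bmp4*, a close relative of *Bmp2* that is used throughout the embryo (GRCm38 chr14:46383520-46390669, minus strand), had 7, 1 and 14 counts in the D0 libraries (replicates in order) and 1460, 1467 and 1464 counts in the D5 libraries. The D5 libraries lay within a few percent of each other and the D0 libraries spread widely around a very low level. In CPM this was 0.186 ± 0.162 at D0 against 58.8 ± 0.700 at D5 (mean ± SD of 3 libraries), and the log2 fold change was 8.29 (SE 0.129, 314-fold, edgeR adjusted p = 6.5e-31). The size rests on few D0 counts: the log2 fold change was 7.74 without D0 replicate 2 and 9.12 without D0 replicate 3. Of all genes tested, 0.976% had a log2 fold change as high as that of *Bmp4* or higher.

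*Bmp2*, which drives bone formation (chr2:133552159-133562885, plus strand), had no count in any D0 library and 28, 31 and 27 counts in the D5 libraries. Every D5 library therefore lay above D0, although the D5 level was only 1.15 ± 0.0923 CPM (SD, n = 3). Set against the limit of 3 counts per library, which is 0.0753 CPM at D0 and covers counting error only, *Bmp2* was at least 15.3-fold higher at D5 (edgeR adjusted p = 2.8e-12). *Bmp6*, known for its part in iron balance, had 10, 11 and 14 counts at D0 and 18, 19 and 21 at D5. It rose from 0.292 ± 0.0482 to 0.777 ± 0.0639 CPM (mean ± SD of 3 libraries), with a log2 fold change of 1.40 (SE 0.302, 2.64-fold, edgeR adjusted p = 1.1e-04). With scaling to the spike-in RNAs the log2 fold change of *Bmp6* was 0.75 and the call was lost (edgeR adjusted p = 0.338). *Bmp6* had 21 counts or fewer in every library. In addition, 5.74% of its exonic length (224 bases) overlaps exons of *Txndc5* on the opposite strand, a gene with 3745 to 10134 counts per library that fell by 0.64 on the log2 scale. The strand setting of the counting is not given in the sources used here, and the part of *Txndc5* in the *Bmp6* counts was not tested.

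The antagonists moved in opposite directions. *Grem1*, which encodes gremlin 1 (chr2:113746164-113758646, minus strand), had 648, 736 and 686 counts at D0 against 4456, 4150 and 4408 at D5. *Grem1* RNA thereby went from 17.3 ± 0.236 to 174 ± 5.13 CPM (mean ± SD of 3 libraries), with a log2 fold change of 3.33 (SE 0.0413, 10.1-fold, edgeR adjusted p = 1.9e-33). *Nog*, which encodes noggin from a single exonic stretch of 1695 bases (chr11:89300638-89302332, minus strand), had 941, 1125 and 1059 counts at D0 and 136, 138 and 138 at D5. It fell from 26.0 ± 0.844 to 5.52 ± 0.0953 CPM (mean ± SD of 3 libraries), or to 21.2% of its myoblast level (log2 fold change -2.24, SE 0.0700, edgeR adjusted p = 5.8e-23). For both genes the distance between the groups was many times the spread within either. A rise as large as that of *Grem1* was seen in 6.70% of all genes tested and a fall as large as that of *Nog* in 5.16%. *Grem1*, *Nog*, *Bmp4* and *Bmp2* kept their call and direction under every scaling tried.

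Among the 10 BMP genes, *Bmp4* and *Grem1* were the ligand and the antagonist with most RNA in myotubes, and both rose. The stretch before the transcription start is shown for each of them. Both are the 250 bases upstream of the start given by RefSeq (GRCm38.p6), on the minus strand of the chromosome and written 5′ to 3′ in the direction of transcription, *Bmp4* at chr14:46390670-46390919 and *Grem1* at chr2:113758649-113758898. Capitals mark the E-box CANNTG in *Bmp4*, a general motif read by MyoD among other factors. In *Grem1* they mark the letters GGCGCC, a GC-rich motif of Smad1 and Smad5.
Bmp4: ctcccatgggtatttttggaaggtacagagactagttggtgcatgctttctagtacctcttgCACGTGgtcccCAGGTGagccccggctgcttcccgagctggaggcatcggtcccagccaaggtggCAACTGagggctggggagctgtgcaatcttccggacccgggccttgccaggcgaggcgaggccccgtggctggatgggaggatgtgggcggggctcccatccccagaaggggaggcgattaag
Grem1: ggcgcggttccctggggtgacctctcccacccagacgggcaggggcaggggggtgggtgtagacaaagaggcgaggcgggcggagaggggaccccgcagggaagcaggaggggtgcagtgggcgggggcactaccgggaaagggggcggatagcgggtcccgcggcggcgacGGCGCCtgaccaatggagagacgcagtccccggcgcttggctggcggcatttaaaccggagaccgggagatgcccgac
The *Bmp4* window held 3 E-boxes, whose first bases lie 188, 177 and 123 bases before the start, and no GGCGCC. The *Grem1* window held no E-box and a single GGCGCC, 78 bases before the start. RefSeq windows were at hand for 8 of the 10 BMP genes, and *Bmp2* and *Nog* have no entry. These 8 genes have 10 windows, since *Smad5* has several starts. Its overlapping windows hold the same E-box, and by gene an E-box was found in 3 of 8. An E-box was found in 4 of the 10 windows and in 66.2% of all 32851 windows of this length, GGCGCC in 4 of 10 and in 9.59% of all windows, and the Smad box GTCT, read on both strands, in 7 of 10 and in 82.9% of all windows. The genes with GGCGCC were *Bmpr1a*, *Bmpr2*, *Smad5* and *Grem1*, of which *Smad5* fell. These are matches of letters in a short window and no binding was measured.

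The receptors changed little. *Bmpr1a*, the type I receptor, lay at 123, 125 and 123 CPM in the D0 libraries and at 163, 167 and 163 CPM in the D5 libraries. Its log2 fold change was 0.41 (SE 0.0327, edgeR adjusted p = 1.2e-12) with TMM scaling, but -0.27 without scaling and -0.15 with scaling to the spike-ins. *Bmpr2*, the type II receptor, lay at 233, 233 and 245 CPM at D0 and at 257, 253 and 256 CPM at D5, so that the gap between the groups was smaller than the spread of the D0 libraries. Its log2 fold change was 0.11 (SE 0.0324, 1.08-fold, edgeR adjusted p = 0.00335) with TMM scaling, -0.57 without scaling and -0.46 with the spike-ins. The *Bmpr2* call was also lost with total counts in place of TMM factors (0.023, edgeR adjusted p = 0.528), without the filter on low counts (0.054, edgeR adjusted p = 0.197) and without D0 replicate 1 (0.080, edgeR adjusted p = 0.0576). In TPM, which is not TMM scaled, *Bmpr2* ranged from 44.0 to 47.8 at D0 and from 42.9 to 45.3 at D5, and the groups overlapped. The direction of *Bmpr1a* therefore depends on the scaling, and that of *Bmpr2* also on the measure.

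*Smad1* and *Smad5*, the transducers phosphorylated by BMP receptors, both fell. *Smad1* lay at 57.4, 60.9 and 58.8 CPM at D0 and at 47.3, 46.5 and 45.0 CPM at D5, a log2 fold change of -0.35 (SE 0.0417, 78.3% of D0, edgeR adjusted p = 6.4e-09). *Smad5* lay at 131, 137 and 133 CPM at D0 and at 94.1, 91.3 and 89.8 CPM at D5, a log2 fold change of -0.54 (SE 0.0351, 68.6% of D0, edgeR adjusted p = 6.9e-15). In each gene the lowest D0 library stayed above the highest D5 library. *Smad6*, an inhibitory Smad, had 278, 327 and 337 counts in the deeper D0 libraries and 302, 297 and 341 in the D5 libraries. As CPM this was 7.85 ± 0.478 at D0 and 12.6 ± 0.963 at D5 (SD, n = 3 each), and no D5 library fell among the D0 libraries, although the counts themselves overlapped. *Smad6* rose with TMM scaling (log2 fold change 0.68, SE 0.0798, 1.60-fold, edgeR adjusted p = 5.2e-09), with log2 fold changes of -0.0031 without scaling and 0.076 with the spike-ins. Scaling to the spike-ins left the direction of *Smad1* and *Smad5* in place, at -0.91 and -1.11, but neither call (edgeR adjusted p = 0.166 and 0.0852).

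Without scaling the median log2 fold change of all genes tested was -0.68 and with the spike-ins -0.58, against 0.0022 with TMM, while the share of spike-in counts ranged from 0.726% to 0.859% at D0 and was 1.20%, 0.720% and 2.09% in D5 replicates 1, 2 and 3. Measured against these medians, *Bmpr1a*, *Bmpr2* and *Smad6* lay above the median gene, and *Smad1* and *Smad5* below it, under all 3 scalings. A change of scaling moves these genes and the median by nearly the same amount. Their place relative to the median could therefore hardly change and is no separate support. The plot of log2 fold changes under the 3 scalings shows the other scalings left of TMM for all 10 genes, with the shift smallest for *Bmp2* (fitted values 8.23 with TMM, 7.85 without scaling and 8.03 with the spike-ins).

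**Figure D2:**
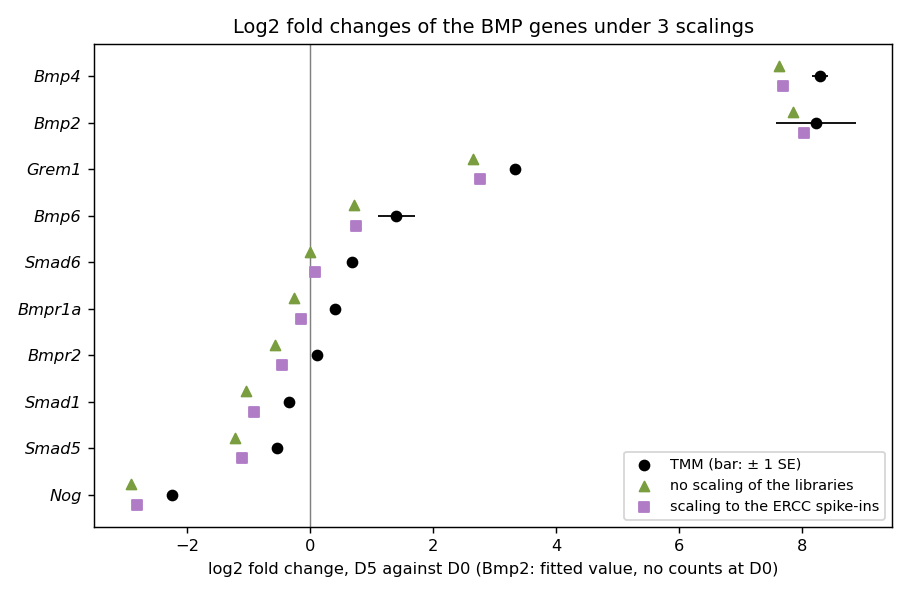
Log2 fold change of each BMP gene, D5 against D0, with TMM scaling (circles, bar ± 1 SE), without scaling (triangles) and scaled to the ERCC spike-ins (squares). *Bmp4*, *Bmp2*, *Grem1* and *Bmp6* stay right of 0 and *Smad1*, *Smad5* and *Nog* left of 0, while *Bmpr1a* and *Bmpr2* cross 0 under both other scalings and *Smad6* lies at -0.0031 without scaling; the *Bmp2* value is fitted and is no bound.

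Per exonic length, the order of the levels was rearranged. In myoblasts *Bmpr1a* stood first with a mean of 67.5 TPM, followed by *Smad5* (62.4), *Nog* (53.2), *Bmpr2* (45.6), *Smad1* (32.6), *Grem1* (14.4), *Smad6* (8.48), *Bmp4* (0.287), *Bmp6* (0.259) and *Bmp2* (0 TPM). The ranges of *Bmp4* and *Bmp6* overlapped, and all other neighbours were apart in every library. In myotubes *Grem1* stood first with a mean of 130 TPM, followed by *Bmp4* (81.1), *Bmpr1a* (80.3), *Bmpr2* (44.0), *Smad5* (38.4), *Smad1* (22.9), *Smad6* (12.2), *Nog* (10.1), *Bmp2* (1.00) and *Bmp6* (0.617 TPM). Here *Bmp4* and *Bmpr1a* did not differ beyond their spread, although their ranges were apart without D5 replicate 1 and with the longest transcript as length. *Nog* thus went from the third to the eighth place and *Bmp4* from the eighth to the second. With the length of the longest transcript in place of all exons, *Nog* took the fifth place at D0, beside *Smad1*, with a mean of 41.9 TPM.

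**Figure D3:**
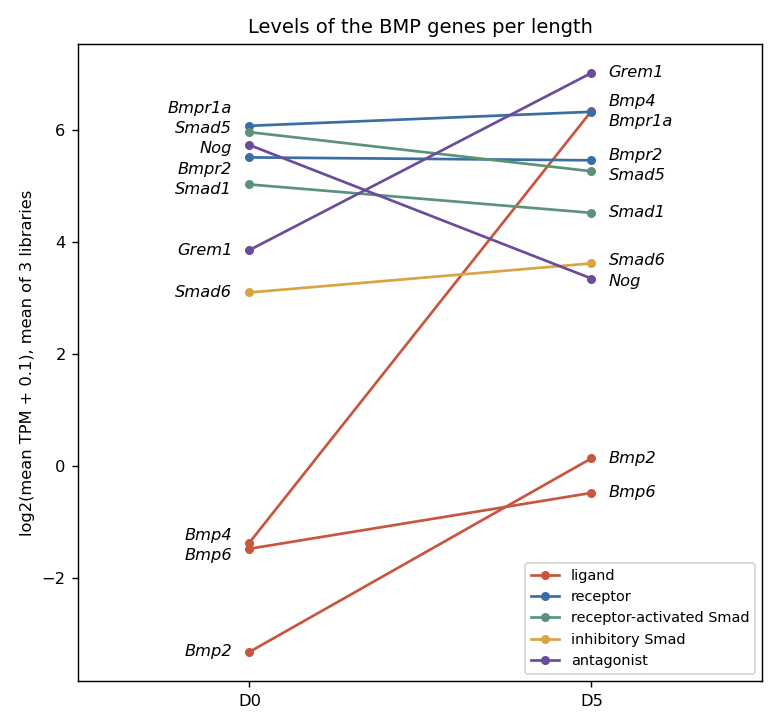
Mean TPM of 3 libraries for each BMP gene at D0 and D5, as log2(mean TPM + 0.1), coloured by role. The steepest line is that of *Bmp4*, from 0.287 to 81.1 TPM, and the lines of *Grem1* and *Nog* cross.

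Within a library the pathway can be read as ratios, which do not depend on how libraries are scaled to each other. The summed TPM of the 3 ligands was 0.546 ± 0.294 at D0 and 82.8 ± 0.699 at D5 (SD, n = 3 each). That of the antagonists *Grem1* and *Nog* was 67.6 ± 2.63 and 140 ± 6.02 (SD, n = 3 each). Other antagonists and modulators were left out of this sum, for example *Nbl1* (302 TPM at D0, 206 at D5) and *Chrd* (0.191 and 11.7). The log2 ratio of ligands to antagonists was -6.97, -8.01 and -6.33 in the D0 libraries against -0.80, -0.70 and -0.78 in the D5 libraries. All D5 libraries lay far above all D0 libraries. The summed TPM of *Grem1* and *Nog* still exceeded that of the 3 ligands in each of them. On the linear scale the ratio went from 0.00727 to 0.590, as the antilog of the mean log2 ratio. *Bmp4* made up 44.0% of the ligand TPM at D0 and 98.0% at D5.

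The pair of *Grem1* and *Nog* changed its make-up along with its level. *Grem1* held 21.3% of the summed TPM of this pair at D0 and 92.8% at D5. The log2 ratio of *Grem1* to *Nog* went from -1.88 ± 0.047 to 3.69 ± 0.064 (SD, n = 3 each). Inside the cell, the log2 ratio of *Smad6* to the sum of *Smad1* and *Smad5* was -3.54, -3.54 and -3.38 at D0 and -2.43, -2.39 and -2.18 at D5. The sum of *Smad1* and *Smad5* went from 95.0 ± 3.26 to 61.3 ± 2.53 TPM (SD, n = 3 each), so *Smad6* remained the smaller term in every library. *Smad7*, another inhibitory Smad, named after its values were seen, was left out of this ratio. It had more RNA than *Smad6* and fell from 34.4 ± 1.76 to 20.3 ± 0.755 TPM (SD, n = 3 each). Its log2 fold change was -0.60 with TMM scaling, -1.29 without scaling and -1.19 with the spike-ins, where the call was lost. The ratio therefore does not stand for all inhibitory Smads. The log2 ratio of *Smad5* to *Smad1* went from 0.93 ± 0.013 to 0.74 ± 0.013 (SD, n = 3 each), a small difference without overlap between the groups. The receptors summed to 113 ± 2.80 TPM at D0 and 124 ± 2.01 TPM at D5. No test was made on these ratios, which are built from chosen genes.

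**Figure D4:**
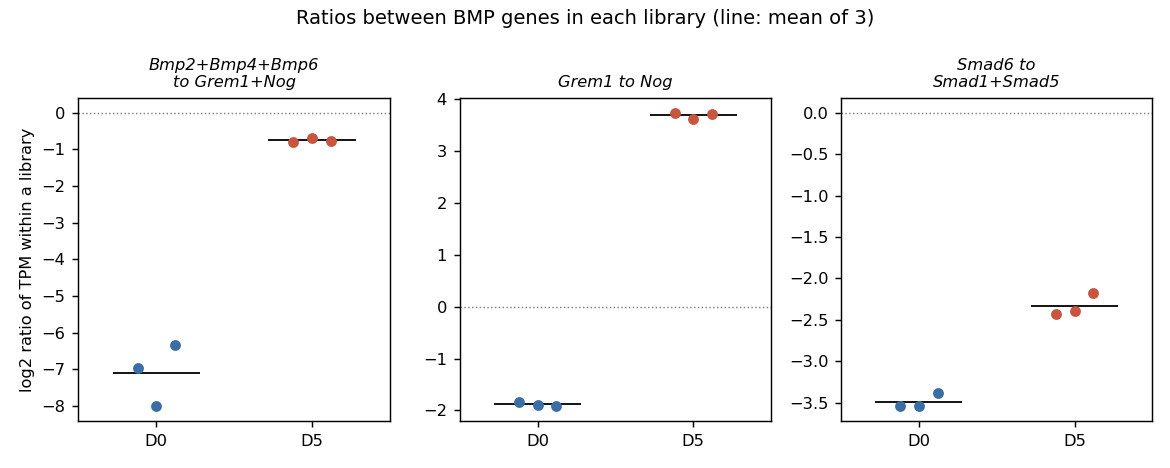
Log2 ratios of TPM within each library (points, 3 per group, line: mean), with the dotted line at equal levels. The ratios are the 3 ligands to the antagonists *Grem1* and *Nog*, *Grem1* to *Nog*, and *Smad6* to the sum of *Smad1* and *Smad5*. *Grem1* to *Nog* crosses equality, from a mean of -1.88 to 3.69, whereas ligands to antagonists (mean -0.76 at D5) and *Smad6* to *Smad1* and *Smad5* (mean -2.33 at D5) stay below it.

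Other genes of the pathway were followed in 6 lists with 67 genes, of which 43 were tested, 20 rose, 21 fell and 2 did not pass edgeR's test. Both counts are near the shares over all genes tested, 42.2% higher and 40.8% lower. Of 11 other ligands only *Gdf5*, a ligand of joint and limb development, was tested, with no count at D0 and 27, 30 and 25 counts at D5, at least 14.6-fold higher (edgeR adjusted p = 4.7e-12). A further 8 ligands had at most 3 counts in any library, and *Gdf6* and *Bmp8a* at most 4 and 13.

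Among 9 other receptors and coreceptors, 8 were tested, 6 rose and 2 fell, where 82.9% of all genes tested were called and 42.2% were higher. *Hjv*, the BMP coreceptor hemojuvelin, which the files list under its older symbol *Hfe2*, rose from 0.676 ± 0.0489 to 260 ± 2.04 CPM (SD, n = 3 each, log2 fold change 8.58, edgeR adjusted p = 7.3e-39). *Bmpr1b*, a second type I receptor, rose from 0.208 ± 0.0323 to 7.96 ± 0.911 CPM (log2 fold change 5.23, edgeR adjusted p = 4.9e-21). The type II receptors that also bind activins went apart, with *Acvr2a* higher (log2 fold change 1.03) and *Acvr2b* lower (-1.13). *Acvr1*, a type I receptor named after its values were seen, fell by 0.21 on the log2 scale. The calls of *Acvr2a* and *Acvr1* were lost with scaling to the spike-ins, where 2 genes of the list rose and 1 fell.

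Of 19 other extracellular antagonists and modulators, 12 were tested, 7 rose and 5 fell, again where 82.9% of all genes tested were called. *Tll1* (log2 fold change 4.37), *Kcp* (1.25) and *Fstl3* (0.15), named after their values were seen, rose less than the other genes that rose. The 4 that rose most bind ligands outside the cell. *Chrdl1*, a chordin-like protein, had 1, 0 and 2 counts at D0 and 790, 690 and 852 counts at D5 (edgeR adjusted p = 1.4e-28). *Chrd*, chordin itself, rose from 0.346 ± 0.0981 to 23.7 ± 0.829 CPM (SD, n = 3 each, log2 fold change 6.10, edgeR adjusted p = 7.9e-28). *Bmper*, which binds BMPs and can favour or oppose them, rose to 62.4 ± 1.24 CPM (log2 fold change 5.07) and *Fst*, follistatin, an activin and BMP binder, to 52.9 ± 3.17 CPM (log2 fold change 4.90). The 5 that fell, named after their values were seen, were *Bmp1* (log2 fold change -1.45), a protease that cuts chordin and procollagen despite its name, *Fstl1* (-1.26), *Twsg1* (-0.58), *Crim1* (-0.54) and *Nbl1* (-0.39). The summed level of the list fell from between 1984 and 2003 CPM at D0 to between 1093 and 1104 CPM at D5. *Fstl1* alone went from a mean of 1264 to 529 CPM. Without scaling 5 genes of the list rose and 6 fell, and with the spike-ins 5 rose and 2 fell. With the spike-ins the calls of *Twsg1*, *Crim1*, *Nbl1*, *Kcp* and *Fstl3* were lost (edgeR adjusted p = 0.0723, 0.0885, 0.140, 0.514 and 0.549).

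Inside the cell, 10 other signalling genes were tested, of which 2 rose, 6 fell and 2 did not pass. Among all genes tested 82.9% were called, 42.2% higher and 40.8% lower. *Zfp423*, a zinc-finger partner of Smads, fell from 2.43 ± 0.225 to 0.134 ± 0.0616 CPM (SD, n = 3 each, log2 fold change -4.15, edgeR adjusted p = 1.5e-13). *Smad9*, the remaining BMP-responsive Smad, fell from 6.61 ± 0.230 to 2.33 ± 0.0912 CPM (edgeR adjusted p = 8.4e-13), and the ubiquitin ligases *Smurf1* and *Smurf2* fell by 0.98 and 0.72 on the log2 scale. *Smad4*, the partner shared with TGF-beta signalling, had 99.0 ± 5.67 CPM at D0 and 96.9 ± 0.248 at D5 (SD, n = 3 each, edgeR adjusted p = 0.466), and *Lemd3*, an inner nuclear membrane protein that binds Smads, 34.1 ± 1.56 and 36.2 ± 0.777 CPM (edgeR adjusted p = 0.0855). The 2 that rose, named after their values were seen, were the Smad repressor *Ski* (log2 fold change 0.48) and the Smad phosphatase *Ppm1a* (0.28), and both turned negative without scaling (-0.20 and -0.41) and with the spike-ins (-0.10 and -0.28).

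The BMP target genes of this list were lower in myotubes. All 7 of the 9 listed genes that were tested fell, with a median log2 fold change of -1.78, against 40.8% of all genes tested called lower. *Smad6*, also made in response to BMP, is not in this list and did not fall with TMM scaling. Its log2 fold change was 0.68 with TMM, -0.0031 without scaling and 0.076 with the spike-ins. *Id3* fell from 141 ± 2.02 to 33.1 ± 0.897 CPM (SD, n = 3 each, log2 fold change -2.09, edgeR adjusted p = 9.0e-29). *Id2*, at 66.5 ± 1.41 CPM in myoblasts, fell to 18.0% of that level (log2 fold change -2.47, edgeR adjusted p = 1.1e-27). *Hey1*, which Notch also controls, fell by 2.68 and *Msx2*, a homeobox gene of limb and skull, by 1.78 on the log2 scale. The direction held for all 7 under every scaling, and with the spike-ins 5 of them kept their call. The summed level of the list went from between 281 and 288 CPM at D0 to between 79.9 and 80.5 CPM at D5. The Id genes are also high in dividing cells, and the proliferation markers fell in the same libraries: the part of proliferation in this fall was not tested.

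Of 9 osteoblast markers 5 were tested, 4 rose and 1 fell, against 42.2% of all genes tested called higher and 40.8% lower. *Phex*, an endopeptidase of bone mineral balance, rose from 1.34 ± 0.200 to 15.2 ± 2.92 CPM (SD, n = 3 each, log2 fold change 3.50, edgeR adjusted p = 1.4e-20) and *Bglap2*, an osteocalcin gene, to 2.68 ± 0.416 CPM (log2 fold change 4.58). *Bglap2* has near-identical copies beside it, between which the counting could split reads. *Dmp1* and *Pth1r*, named after their values were seen, rose but stayed at 0.630 and 0.641 CPM at D5. *Runx2*, the transcription factor that begins osteoblast differentiation, fell from 111 ± 2.67 to 42.1 ± 0.943 CPM (SD, n = 3 each, log2 fold change -1.40, edgeR adjusted p = 2.9e-24). The defining markers *Sp7*, *Alpl*, *Ibsp* and *Bglap* had at most 5 counts in any library.

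**Figure D5:**
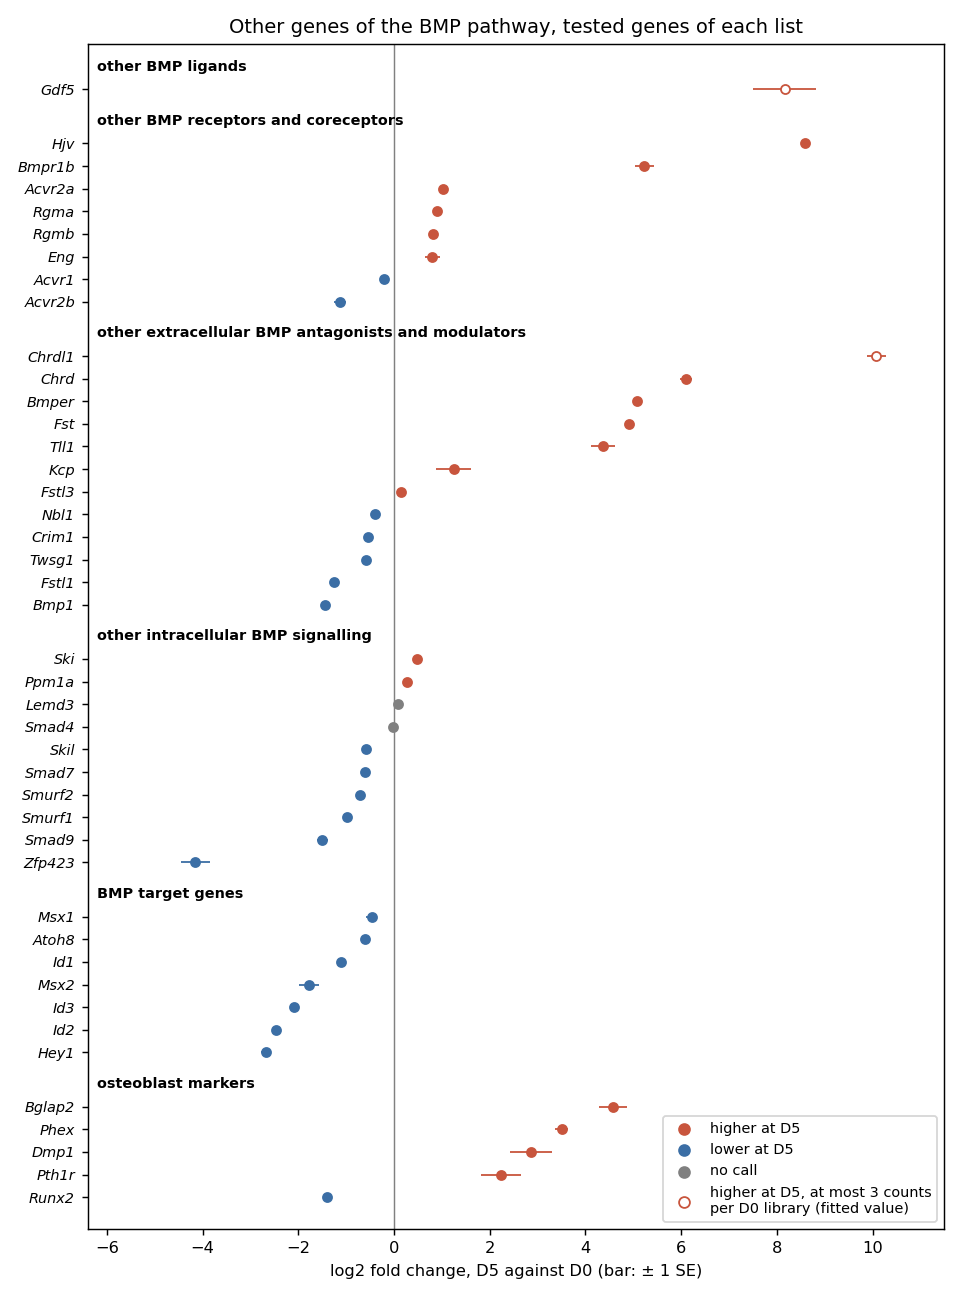
Log2 fold change, D5 against D0 with TMM scaling (point, bar ± 1 SE), of the 43 tested genes of 6 BMP pathway lists, coloured by edgeR's call (20 higher, 21 lower, 2 not called). All 7 tested target genes lie left of 0, and *Hjv*, *Bmpr1b*, *Chrd*, *Bmper*, *Fst*, *Bglap2* and *Tll1* lie right of 4. *Gdf5* and *Chrdl1* also lie right of 4, but are fitted values and no bounds. *Ski*, *Ppm1a*, *Fstl3* and *Lemd3* had negative log2 fold changes without scaling and with the spike-ins, which are not drawn here.

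The genes nearest to the BMP genes with the largest changes were looked up among 16282 tested genes with a length, by the Euclidean distance of mean log2(TPM + 0.1) at D0 and D5. Among those nearest to *Bmp4* were *Brinp3* (distance 0.278) and *Tcap*, which encodes a sarcomere protein (0.425). Nearest to *Nog* were *Wee1*, an inhibitory kinase of the cell cycle (0.0351), *Gm7809*, and *Mthfd1l*, an enzyme of folate metabolism (0.165). With only 2 conditions such likeness rests on a pair of levels.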

How the data were processed

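RNA-seq libraries of C2C12 myoblasts (D0, n = 3) and myotubes (D5, n = 3) were grouped by their titles. The labels speak of cultured cells but do not say how the 3 samples of a group were separated, so p-values measure the spread between these samples, which may be technical. The authors deposited raw read counts per gene, without normalization, made with featureCounts on mm10. The labels name Tophat2 as aligner and the paper HISAT2, and it is open which was used here. Strand, annotation release and reads with several matches are not given in the sources used here, so genes that overlap can share reads.

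From these counts, edgeR 4.0.16 (R 4.3.3) gave TMM factors, CPM, log2 fold changes and quasi-likelihood tests after filterByExpr. Benjamini-Hochberg adjustment ran over 16290 genes. SE was taken as the size of the log2 fold change over the root of F. TPM used exonic lengths of GENCODE on GRCm38, found for 99.9% of genes. The 92 ERCC spike-ins and a row without a gene name, the column total, were left out. A group with at most 3 counts in every library counted as not detected. Replicates differed by more than counting noise, with chi-square per degree of freedom between 2.28 and 3.71. The scripts were tested on simulated data. Alternatives were DESeq2 1.42.0, other scalings and filters, leaving out each library, a replicate block, and other lengths or sums.

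The members and lists were chosen with earlier results of these data known. Named are all 10 members and, per list, up to 4 called genes with the largest change and at least 1 CPM in a group, and genes not called with at least 10 CPM. Genes outside this rule are marked. A gene near *Bmp4* in level is not reported here.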

Additional observations from a re-analysis of the deposited data

How the results depend on the processing

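All 10 BMP genes kept their direction and call with DESeq2 and upper-quartile factors. Same-numbered libraries deviated together with correlations of only 0.033, 0.064 and 0.028, none over 0.1, so they were taken to share only a number. Each was still the highest for its number, which is a hint of pairing from the data and not from the design. With the replicate block 13558 genes were called, 7 BMP genes rose, 3 fell, 20 list genes rose and 21 fell, and it changed no call named here.

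With scaling to the spike-ins 5560 genes were called in place of 13510, 3 BMP genes rose and 1 fell, 12 list genes rose and 13 fell, and 3 BMP genes lay above without overlap. Without scaling 4 BMP genes rose and 5 fell, and the same numbers did not overlap. Log2 fold changes of opposite sign were -0.27 and -0.15 for *Bmpr1a*, -0.57 and -0.46 for *Bmpr2* (without scaling and with spike-ins) and -0.0031 for *Smad6* without scaling. The share of calls that were lower was 49.2% with TMM, 76.6% without scaling and 67.4% with the spike-ins. Without scaling, library depth stays in the values, and the D0 libraries held more counts than the D5 libraries. The cause of these shares was not tested. At least 10 counts in every library removed genes near 0 at D0, *Bmp2* and *Bmp4* among them, and 12 list genes rose.

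The difference of the log2 ratio of ligands to antagonists was 6.34 with TPM and 5.03 with CPM sums, which leave out length. With the longest transcript 3 pairs of neighbours overlapped at D0 and 0 at D5, where 0 also overlapped without D5 replicate 1. Leaving out each library gave from 13236 to 13599 called genes, 6 or 7 BMP genes that rose and 3 that fell, from 19 to 21 list genes that rose and 21 that fell, ratios of ligands to antagonists from 5.89 to 6.73, of *Smad6* to *Smad1* and *Smad5* from 1.08 to 1.21, and 7 genes above and 3 below without overlap. *Fstl3*, at 0.15 on the log2 scale (edgeR adjusted p = 0.0337), lost its call or turned with DESeq2, 4 other scalings, no filter, and without 4 of the 6 libraries in turn. Depth limits *Bmp2*, *Bmp6* and D0 *Bmp4*, each at most 31 counts per library there.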
